A study of Mus musculus with 12 samples.

Results

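The 10 genes described here encode the core of the Hippo pathway in the mouse: the kinases *Stk3* and *Stk4* (also called MST2 and MST1), their scaffold *Sav1*, the kinases *Lats1* and *Lats2*, the LATS coactivators *Mob1a* and *Mob1b*, the tumor suppressor *Nf2* (merlin), and the angiomotin-like proteins *Amotl1* and *Amotl2*. They were chosen by name, and all 10 were found among the 41743 genes of both deposited tables. Whole livers of 12 female mice, 3 to 4 months old, were sequenced in 4 groups of 3. YAP KO mice (C57BL/6 background) had both copies of *Yap1* floxed, with Cre recombinase under the *Foxa3* promoter, and carried an EYFP reporter at *ROSA*. YAP KO TAZ HET mice (mixed C57BL/6-FVB background) also had *Yap1* deleted with *Foxa3*-Cre, from a separate floxed stock of FVB origin, and in addition lacked 1 copy of *Wwtr1*, the gene of TAZ. Each model was compared with female WT littermates of its own background, called WT (C57BL/6) and WT (mixed). *Foxa3*-Cre acts in the foregut endoderm, from which hepatocytes and bile duct cells arise, and it is not expected to delete in endothelial cells, macrophages or stellate cells. The paper mentions unshown evidence that the Cre line also acts in the developing kidney, a mesodermal organ. Deletion by cell type was not measured here. Sex, age range and tissue were shared by all 4 groups.

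In the Hippo pathway, MST kinases bound to Sav1 phosphorylate LATS kinases and MOB1, and LATS in turn phosphorylates YAP and TAZ, which are then held in the cytoplasm by 14-3-3 proteins or degraded. Merlin brings LATS to the plasma membrane, and angiomotins bind YAP and TAZ at junctions and the actin cytoskeleton and also activate LATS. YAP and TAZ that reach the nucleus act through TEAD transcription factors, and *Amotl2*, *Lats2* and *Nf2* are known in other systems as genes that YAP and TEAD can induce, a negative feedback on the pathway. In the liver, the pathway is known for its control of organ size and of bile duct cell fate.

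The values are TPM, in which read counts are divided by transcript length and then expressed as shares of the library. Every library sums to 1000000 TPM, so the number of reads behind a value is unknown. Each SD given comes from the 3 mice of a group. The SE and interval of a fold change come from the spread within groups of all mice in a fit. In limma this spread is moderated with that of all tested genes. The separate LM numbers in the labels name separate mice, and p-values refer to the spread between these mice. Since TPM are shares, each fit first scaled the libraries by the trimmed mean of their log ratios. The scaled TPM printed below come from scaling all 12 libraries together, while counts of overlap after scaling use the factors of each fit. The factors were 0.857 to 0.908 for WT (C57BL/6) and 1.0801 to 1.23 for YAP KO livers, and 0.858 to 0.947 for WT (mixed) and 1.07 to 1.18 for YAP KO TAZ HET livers. Without scaling, the median gene stood 0.28 higher in YAP KO and 0.24 higher in livers of the YAP KO TAZ HET group on the log2 scale, and with scaling it stood at -0.04 in both. Fold changes below are on the scale log2(scaled TPM + 1), with limma and Benjamini-Hochberg adjustment over all tested genes, and "rose" or "fell" means an adjusted p under 0.05. *Yap1* fell from 28.2 to 30.5 TPM in WT (C57BL/6) to 1.67 to 3.72 TPM in YAP KO livers (log2 fold change -3.51 ± 0.18 (SE), n = 3 and 3, limma adjusted p = 8.0e-06), and from 31.0 to 33.2 TPM in WT (mixed) to 8.63 to 11.5 TPM in livers of the YAP KO TAZ HET group (-1.93 ± 0.14, limma adjusted p = 3.6e-05). *Wwtr1* rose in YAP KO livers (0.73 ± 0.11, limma adjusted p = 0.0018), and its TPM was not lower in livers of the YAP KO TAZ HET group, at 11.5 to 14.1 against 7.73 to 8.38 TPM in WT (mixed) (0.26 ± 0.10, limma adjusted p = 0.0743). The values are for the whole gene, so the deleted part of *Wwtr1* was not read apart.

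The RefSeq promoters of the members are shown first for *Amotl2* and *Nf2*, the members that fell in livers of the YAP KO TAZ HET group. The sequences are the 250 bases before a RefSeq start of each gene on GRCm38.p6 (for *Nf2* the outer of its starts, and for *Amotl2* a start that lies within the gene region of the deposited tables), written 5′ to 3′ along the gene's strand, and capitals mark CATTCC, the core of the motif that TEAD factors bind.
Amotl2 (chr9:102717554-102717803, + strand): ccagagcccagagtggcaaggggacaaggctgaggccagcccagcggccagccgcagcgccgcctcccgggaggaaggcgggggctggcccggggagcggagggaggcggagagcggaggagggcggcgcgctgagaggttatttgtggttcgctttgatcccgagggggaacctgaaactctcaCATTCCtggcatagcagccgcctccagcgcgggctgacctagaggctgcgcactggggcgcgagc
Nf2 (chr11:4849545-4849794, - strand): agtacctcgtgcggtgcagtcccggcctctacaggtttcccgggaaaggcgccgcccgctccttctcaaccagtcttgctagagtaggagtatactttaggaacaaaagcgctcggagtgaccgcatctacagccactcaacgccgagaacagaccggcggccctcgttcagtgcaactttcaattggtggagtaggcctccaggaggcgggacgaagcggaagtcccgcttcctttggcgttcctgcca

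CATTCC was searched on both strands, where the other strand reads GGAATG, in windows from 250 bases before to 50 bases after the start. RefSeq promoters were matched for 9 of the 10 members, in 11 windows since *Nf2* and *Lats2* have a pair of starts each. *Stk3* had no entry. 4 of the 11 windows held 1 match each, against 14.7% of all 32851 RefSeq promoter windows, and 7 held none, both *Nf2* windows among them. Each match is printed with 10 bases on each side, motif in capitals, to set the 4 genes side by side.
Mob1a (chr6:83325820-83325845, + strand): gccagaatagCATTCCtttaggagaa
Amotl2 (chr9:102717729-102717754, + strand): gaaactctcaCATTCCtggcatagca
Sav1 (chr12:69987093-69987118, - strand): gctttcccagCATTCCcagcggcgcg
Lats2 (chr14:57746104-57746129, - strand): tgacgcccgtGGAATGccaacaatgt
The first base of the motif lay 209 bases before the start in *Mob1a*, 65 before it in *Amotl2* and 106 before it in *Sav1*, and was base 5 of the transcript in *Lats2*. The start used for this *Lats2* match also lies within its gene region, as that of *Amotl2* does. A match is a stretch of letters and not a bound site, and of these 4 genes only *Amotl2* changed in either model.

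Of the 10 members, *Amotl2* fell in YAP KO livers and none rose, and in livers of the YAP KO TAZ HET group *Amotl2* and *Nf2* fell and none rose. Of all 11704 genes tested in YAP KO livers 36.7% changed (18.8% rose, 18% fell), and of 11741 in livers of the YAP KO TAZ HET group 38.2% changed (19.2% rose, 19% fell). The members' own counts, 1 of 10 and 2 of 10, are a description of 10 chosen genes and were not tested against these shares. All 10 passed the filter on low values in every comparison. The median log2 fold change of the 10 was -0.08 in YAP KO and -0.19 in livers of the YAP KO TAZ HET group, against -0.04 for all tested genes in both. Without scaling the count in YAP KO livers was 2, and it was *Stk3* and *Stk4* that rose.

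**Figure D1:**
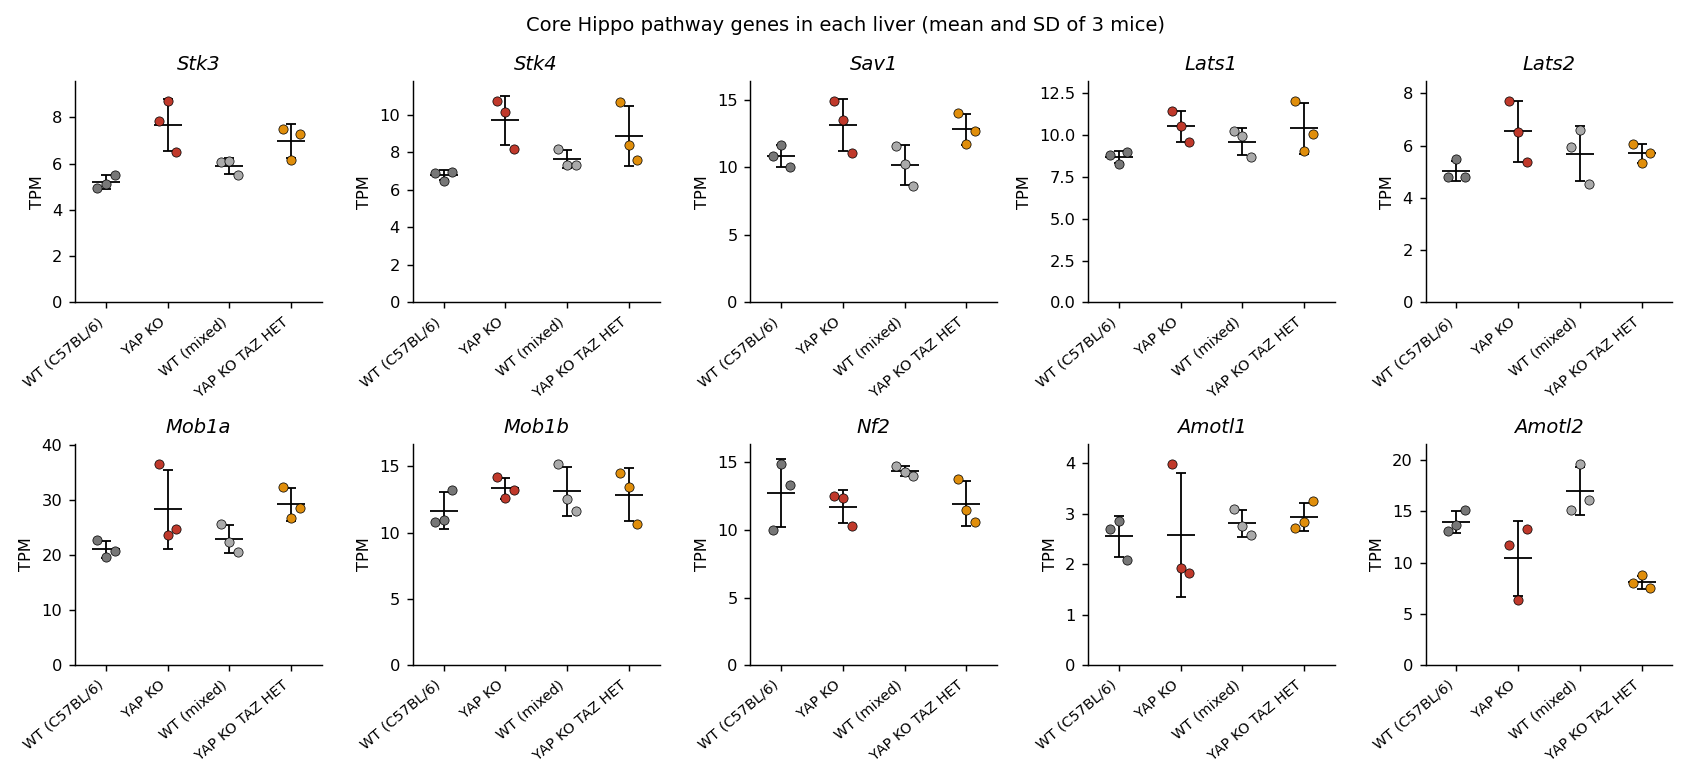
TPM of the 10 core Hippo pathway genes in each of the 12 livers, by group; points are mice, the bar and whiskers are the mean and SD of 3. The YAP KO TAZ HET points of *Amotl2* (7.497 to 8.77 TPM) lie below all WT points, while those of the other genes lie near the WT points or above them, except *Nf2*.

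**Figure D2:**
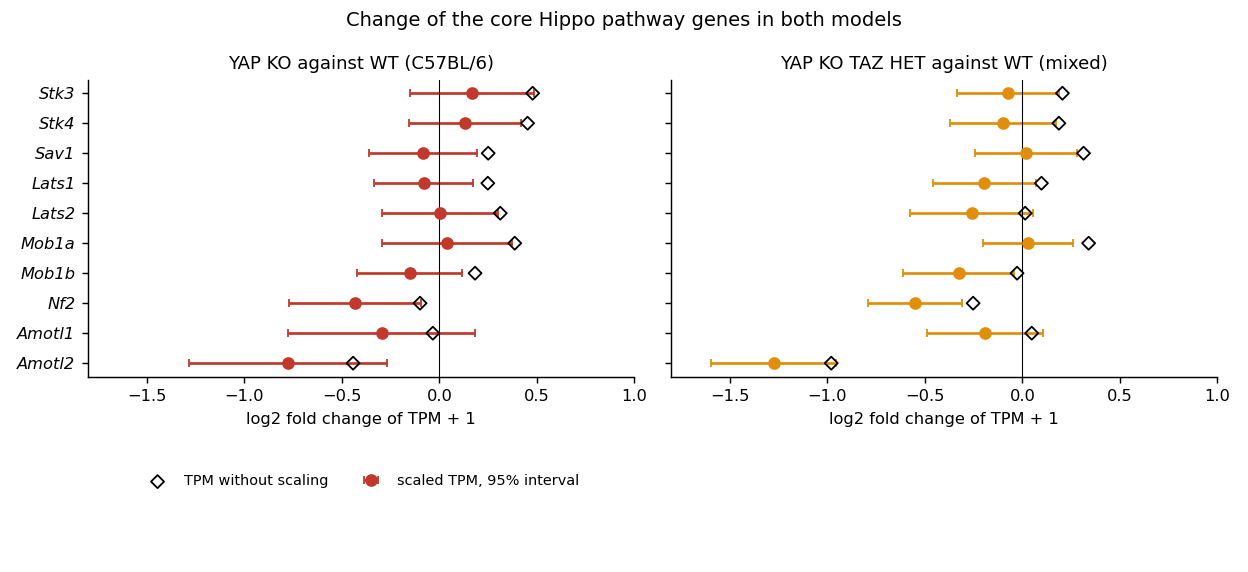
Log2 fold changes of the 10 genes in each model; filled points are scaled values with 95% intervals from limma and open diamonds the values without scaling, all with 1 added to TPM. *Amotl2* lies furthest to the left in both models (-0.78 and -1.28), and the open diamonds lie to the right of the filled points for every gene.

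By level, *Mob1a* was the most abundant member, with a median of 24.2 TPM over the 12 livers, and *Amotl1* the least, with 2.74 TPM. *Amotl2* (13.2 TPM), *Nf2* (12.9 TPM), *Mob1b* (12.9 TPM) and *Sav1* (11.6 TPM) came next, then *Lats1* (9.77 TPM), *Stk4* (7.87 TPM), *Stk3* (6.13 TPM) and *Lats2* (5.59 TPM). This order pools all groups and did not hold in each: in livers of the YAP KO TAZ HET group the mean of *Amotl2* (8.08 TPM) was below those of *Sav1* (12.8 TPM), *Lats1* (10.4 TPM) and *Stk4* (8.88 TPM) as well as those of *Nf2* and *Mob1b*. Of the 9 pairs of neighbours in this order, the ranges were separate in all 4 groups for *Mob1a* and *Amotl2* and for *Lats2* and *Amotl1*. The other 7 pairs overlapped in at least 1 group. Across the 12 livers the highest scaled value of a member was 1.31 times the lowest for *Sav1*, 1.37 times for *Mob1a* and *Stk4*, and 3.76 times for *Amotl2*.

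The MST kinases and Sav1 form the upper kinase complex of the pathway. *Stk3* (ENSMUSG00000022329, chr15:34875496-35178921, minus strand) was at 4.97, 5.11 and 5.53 TPM in WT (C57BL/6) and at 7.84, 8.71 and 6.50 TPM in YAP KO livers. It was at 6.08, 6.13 and 5.51 TPM in WT (mixed) and at 7.52, 6.14 and 7.27 TPM in livers of the YAP KO TAZ HET group. In TPM the knockout livers lay above their WT littermates in both models, though in the second the nearest mice of the groups were almost level. After scaling the groups overlapped in both models (log2 fold change 0.17 ± 0.14, adjusted p = 0.376 by limma, and -0.07 ± 0.11, adjusted p = 0.644 by limma). *Stk4* (ENSMUSG00000018209, chr2:164070322-164155524, plus strand) was at 6.91, 6.47 and 6.93 TPM in WT (C57BL/6) and at 10.7, 10.2 and 8.19 TPM in YAP KO livers, and at 8.17, 7.33 and 7.34 TPM in WT (mixed) and at 10.7, 8.40 and 7.57 TPM in livers of the YAP KO TAZ HET group. The YAP KO livers were again all higher in TPM, and the groups of the other model overlapped. Scaled, neither difference passed the threshold (0.13 ± 0.12, adjusted p = 0.448 by limma, and -0.10 ± 0.12, adjusted p = 0.535 by limma).

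Without scaling, *Stk3* (0.48, limma adjusted p = 0.0263) and *Stk4* (0.45, limma adjusted p = 0.0274) rose in YAP KO livers, where 37.5% of all tested genes then rose, and their values in livers of the YAP KO TAZ HET group turned positive (0.21 and 0.19). *Stk4* overlaps *Tomm34* on the opposite strand, a gene at 6.75 to 17.7 TPM here, and whether reads were counted by strand is not given in the sources used here. *Sav1* (ENSMUSG00000021067, chr12:69965012-69987002, minus strand), which holds the MST kinases together with LATS, was at 10.9, 11.6 and 10.05 TPM in WT (C57BL/6) and at 14.9, 13.5 and 11.1 TPM in YAP KO livers. In the other model it was at 11.6, 10.3 and 8.63 TPM in WT (mixed) and at 14.05, 11.7 and 12.7 TPM in livers of the YAP KO TAZ HET group. The ranges overlapped in YAP KO livers and were just separate in livers of the YAP KO TAZ HET group, and the scaled fold changes were near 0 (-0.08 ± 0.12 and 0.02 ± 0.11). *Sav1* shares at least 90% identity over at least 30% of its transcript with *Atl1*, which overlaps it on the opposite strand and reached 2.04 TPM.

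LATS kinases phosphorylate YAP and TAZ, and MOB1 proteins bind and activate them. *Lats1* (ENSMUSG00000040021, chr10:7681214-7716460, plus strand) was at 8.79, 8.27 and 9.001 TPM in WT (C57BL/6) and at 11.4, 10.5 and 9.601 TPM in YAP KO livers, and at 10.2, 9.94 and 8.68 TPM in WT (mixed) and at 12.03, 9.08 and 10.1 TPM in livers of the YAP KO TAZ HET group. The YAP KO livers were all above WT in TPM, but the scaled values overlapped in both models (-0.08 ± 0.11 and -0.20 ± 0.11, limma adjusted p = 0.609 and 0.212), and the sign of both turned without scaling (0.25 and 0.10). *Lats2* (ENSMUSG00000021959, chr14:57689662-57758388, minus strand) was at 4.82, 5.47 and 4.81 TPM in WT (C57BL/6) and at 7.70, 6.54 and 5.39 TPM in YAP KO livers, and at 5.94, 6.60 and 4.53 TPM in WT (mixed) and at 6.06, 5.35 and 5.71 TPM in livers of the YAP KO TAZ HET group. Its ranges overlapped in both models, and the scaled values were 0.00 ± 0.13 (limma adjusted p = 0.985) and -0.26 ± 0.14 (limma adjusted p = 0.170). The 95% interval of *Lats2* ran from -0.29 to 0.30 in YAP KO and from -0.57 to 0.06 in livers of the YAP KO TAZ HET group. *Lats2* shares at least 90% identity over at least 30% of its transcript with *Gm49361*. That gene overlaps it on the same strand and was at 0 TPM in all 12 livers.

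*Mob1a* (ENSMUSG00000043131, chr6:83326016-83343776, plus strand) was at 22.7, 19.7 and 20.8 TPM in WT (C57BL/6) and at 36.6, 23.7 and 24.7 TPM in YAP KO livers. It was at 25.7, 22.4 and 20.7 TPM in WT (mixed) and at 32.5, 26.7 and 28.6 TPM in livers of the YAP KO TAZ HET group. Every knockout liver was above its WT littermates in TPM, and after scaling the groups overlapped (0.04 ± 0.14, adjusted p = 0.857 by limma, and 0.03 ± 0.10, adjusted p = 0.846 by limma). *Mob1b* (ENSMUSG00000006262, chr5:88720855-88764220, plus strand) went the other way after scaling. It was at 10.8, 10.97 and 13.2 TPM in WT (C57BL/6) and at 14.2, 12.6 and 13.2 TPM in YAP KO livers, and at 15.2, 12.51 and 11.6 TPM in WT (mixed) and at 14.5, 13.5 and 10.6 TPM in livers of the YAP KO TAZ HET group. The TPM ranges overlapped in both models, whereas the scaled ranges were separate and lower in the knockouts, at 11.7 to 12.2 against 12.2 to 15.2 scaled TPM in YAP KO and 9.72 to 12.1 against 13.3 to 15.8 scaled TPM in livers of the YAP KO TAZ HET group. Neither passed the threshold (-0.15 ± 0.12, adjusted p = 0.337 by limma, and -0.33 ± 0.12, adjusted p = 0.0682 by limma).

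*Nf2* (ENSMUSG00000009073, chr11:4765845-4849536, minus strand) encodes merlin, which links the pathway to cell junctions. It was at 9.99, 14.9 and 13.3 TPM in WT (C57BL/6) and at 12.52, 12.3 and 10.3 TPM in YAP KO livers. Liver LM75 of WT (C57BL/6), at 9.99 TPM, was below all 3 YAP KO livers, and the other WT livers were above them. After scaling all 3 WT livers (11.9 to 16.6 scaled TPM) were above the YAP KO livers (9.5002 to 11.5 scaled TPM), and the difference of -0.43 ± 0.15 missed the threshold (limma adjusted p = 0.0505). Without LM75 it passed, at -0.56 (limma adjusted p = 0.0150), and it passed also with all 12 libraries in 1 fit (-0.44, limma adjusted p = 0.0136). In total *Nf2* passed in YAP KO livers under 5 of 13 alternatives. Over the 13 its log2 fold change ran from -0.56 to -0.099, with limma adjusted p from 0.0136 to 0.648. In the other model *Nf2* was at 14.7, 14.3 and 14.01 TPM in WT (mixed) and at 13.8, 11.5 and 10.6 TPM in livers of the YAP KO TAZ HET group, so that the groups did not overlap on either scale. It fell by 0.55 ± 0.10 on the log2 scale (limma adjusted p = 0.0043), and leaving out each of the 6 mice gave -0.62 to -0.50 with an adjusted p of at most 0.0219 by limma. Without scaling *Nf2* did not pass in livers of the YAP KO TAZ HET group (-0.25, limma adjusted p = 0.145).

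Angiomotin-like proteins bind YAP through its WW domains. *Amotl2* (ENSMUSG00000032531, chr9:102716672-102733418, plus strand) was at 13.03, 13.6 and 15.1 TPM in WT (C57BL/6) and at 11.7, 6.31 and 13.3 TPM in YAP KO livers. LM189 of YAP KO had the lowest value of all 12 livers, and LM191 of YAP KO lay within the WT range, so the groups overlapped in TPM (an exact two-sided permutation test of TPM gave p = 0.2). Scaled, the YAP KO livers (5.88 to 12.3 scaled TPM) were below WT (15.2 to 17.4 scaled TPM), and *Amotl2* fell by 0.78 ± 0.22 on the log2 scale (limma adjusted p = 0.0262). The call was lost when any of the 3 WT mice or LM74 was left out (-0.82 to -0.72, limma adjusted p = 0.0532 to 0.0841), without scaling (-0.44, limma adjusted p = 0.163) and without the filter on low values (limma adjusted p = 0.0527), and it held without LM189 (-0.52, limma adjusted p = 0.0364) and without LM191 (-0.98, limma adjusted p = 0.0108).

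In livers of the YAP KO TAZ HET group *Amotl2* was at 7.96, 8.77 and 7.497 TPM against 15.2, 19.6 and 16.1 TPM in WT (mixed). All 3 YAP KO TAZ HET livers were below all 3 WT livers, and the means were 8.08 ± 0.65 and 17.0 ± 2.35 TPM (SD, n = 3 each, exact two-sided permutation p = 0.1, the smallest that 3 mice against 3 allow). *Amotl2* fell by 1.28 ± 0.14 on the log2 scale (limma adjusted p = 0.00030), a size that put it above 92.5% of all tested genes. It passed under all 13 alternatives of processing and of mice left out, at -1.39 to -0.98. *Amotl1* (ENSMUSG00000013076, chr9:14541966-14645056, minus strand) was at 2.70, 2.87 and 2.09 TPM in WT (C57BL/6) and at 3.99, 1.92 and 1.83 TPM in YAP KO livers, and at 3.09, 2.75 and 2.59 TPM in WT (mixed) and at 2.73, 2.84 and 3.26 TPM in livers of the YAP KO TAZ HET group. It overlapped in both models in TPM and with the scaling of each fit (-0.30 ± 0.21, adjusted p = 0.2996 by limma, and -0.19 ± 0.13, adjusted p = 0.281 by limma), and LM74 of YAP KO was the highest of the 12 livers. With all 12 libraries scaled together, the *Amotl1* ranges of the second model were just separate, with the nearest mice almost level.

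Counted by overlap in TPM, 4 of 10 members were higher and 0 lower in YAP KO livers, where 47.5% of all tested genes were higher and 9.29% lower without overlap. In livers of the YAP KO TAZ HET group 3 of 10 were higher and 2 lower, where 44.4% were higher and 10% lower. After scaling, 0 members were higher and 3 (*Mob1b*, *Nf2* and *Amotl2*) were lower without overlap in each model, where 24.8% of all tested genes were higher and 26.5% lower in YAP KO and 24.5% and 27.6% in livers of the YAP KO TAZ HET group. For the members that did not change, the intervals bound the size that may be missed. On the scale of scaled TPM + 1, the 95% intervals of 7 of 10 members lay within 1.5-fold either way in each model. Those of 9 of 10 lay within 2-fold, *Amotl2* being the exception. The same change in TPM itself is a larger fold, most of all for low members such as *Amotl1*, and these bounds hold only after scaling.

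Ratios between paralogs within a liver do not depend on scaling, and they are given without a test. *Stk3* over *Stk4* averaged 0.769 ± 0.043 in WT (C57BL/6), 0.794 ± 0.063 in YAP KO, 0.777 ± 0.051 in WT (mixed) and 0.799 ± 0.14 in livers of the YAP KO TAZ HET group (SD, n = 3 each), with overlapping ranges in both models. *Lats2* over *Lats1* averaged 0.581 ± 0.070, 0.618 ± 0.056, 0.589 ± 0.071 and 0.553 ± 0.044 in the same order, again with overlap. *Mob1b* over *Mob1a* was at 0.558 to 0.591 in WT (mixed) and at 0.372 to 0.504 in livers of the YAP KO TAZ HET group, without overlap, and at 0.474 to 0.637 and 0.387 to 0.534 in WT (C57BL/6) and YAP KO livers, with overlap. *Amotl2* over *Amotl1* was at 4.90 to 7.14 in WT (mixed) and at 2.30 to 3.09 in livers of the YAP KO TAZ HET group, without overlap, and at 4.76 to 7.25 and 2.92 to 7.26 in WT (C57BL/6) and YAP KO livers, with overlap from LM191 alone. The paralog transcripts are 66.1% to 78.0% identical where they align, over 667 to 1478 bases.

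**Figure D3:**
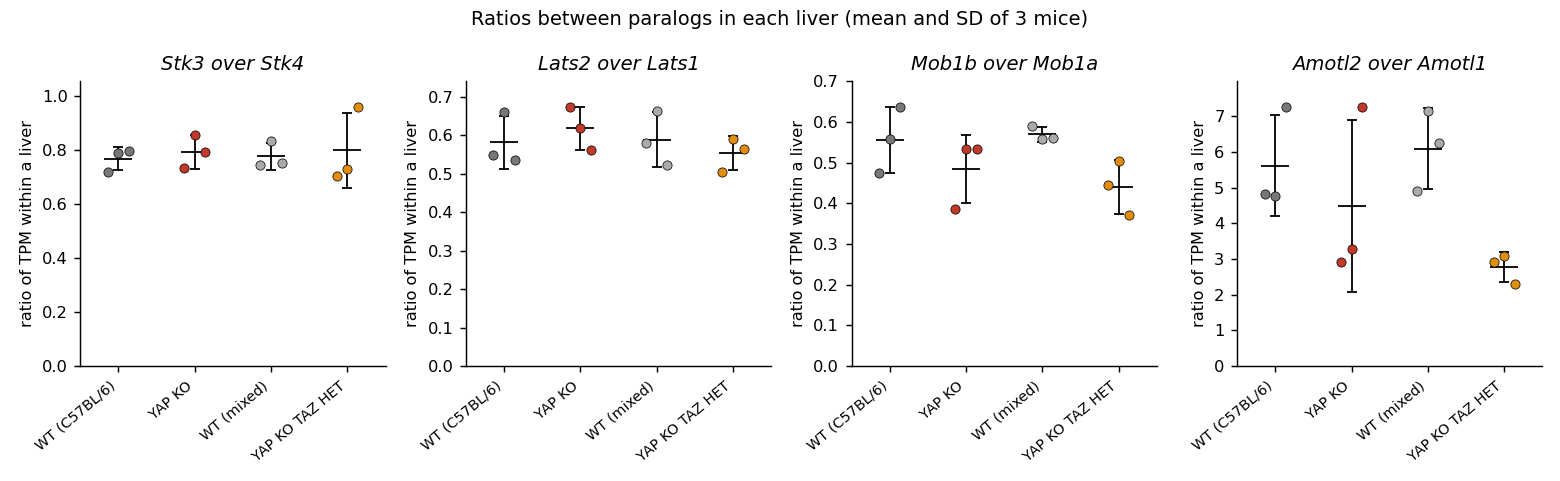
Ratio of TPM between 4 pairs of paralogs in each liver, by group; points are mice, the bar and whiskers are the mean and SD of 3. The points of both kinase pairs overlap between each model and its WT, and the YAP KO TAZ HET group has the lowest mean for *Mob1b* over *Mob1a* (0.440) and *Amotl2* over *Amotl1* (2.77), though LM74 of YAP KO lies among its livers in both.

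*Amot*, the founding angiomotin, is one of the other Hippo genes described below and was set beside its relatives after its values were seen. It was at 0.716, 1.097 and 1.32 TPM in WT (C57BL/6) and at 5.85, 3.43 and 4.42 TPM in YAP KO livers, and at 1.86, 1.57 and 1.47 TPM in WT (mixed) and at 5.66, 6.11 and 6.44 TPM in livers of the YAP KO TAZ HET group. It rose in both models (1.19 ± 0.18, adjusted p = 0.0017 by limma, and 1.19 ± 0.13, adjusted p = 0.00028 by limma), and under every alternative run. *Amotl2* held 77.5% to 81.6% of the TPM of the 3 angiomotins in WT (C57BL/6), 54.1% to 68.0% in YAP KO, 75.4% to 82.0% in WT (mixed) and 43.6% to 49.5% in livers of the YAP KO TAZ HET group. *Amot* held 4.35% to 7.14%, 22.6% to 29.4%, 6.55% to 9.26% and 34.5% to 37.5% in the same order. *Amotl2* over *Amot* thus averaged 14.02 and 10.6 in the WT groups, 2.28 in YAP KO and 1.34 in livers of the YAP KO TAZ HET group, with no overlap between a model and its WT. The summed TPM of the 3 genes was 17.5 ± 1.06, 17.6 ± 5.21, 21.4 ± 2.19 and 17.1 ± 0.69 (SD, n = 3 each), so that the sum in TPM overlapped in the YAP KO model and was lower in every YAP KO TAZ HET liver. After scaling the sum was lower in every knockout liver of both models, at 10.9 to 18.02 against 19.6 to 21.4 scaled TPM in YAP KO and 13.6 to 15.9 against 20.9 to 27.01 scaled TPM in livers of the YAP KO TAZ HET group.

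**Figure D4:**
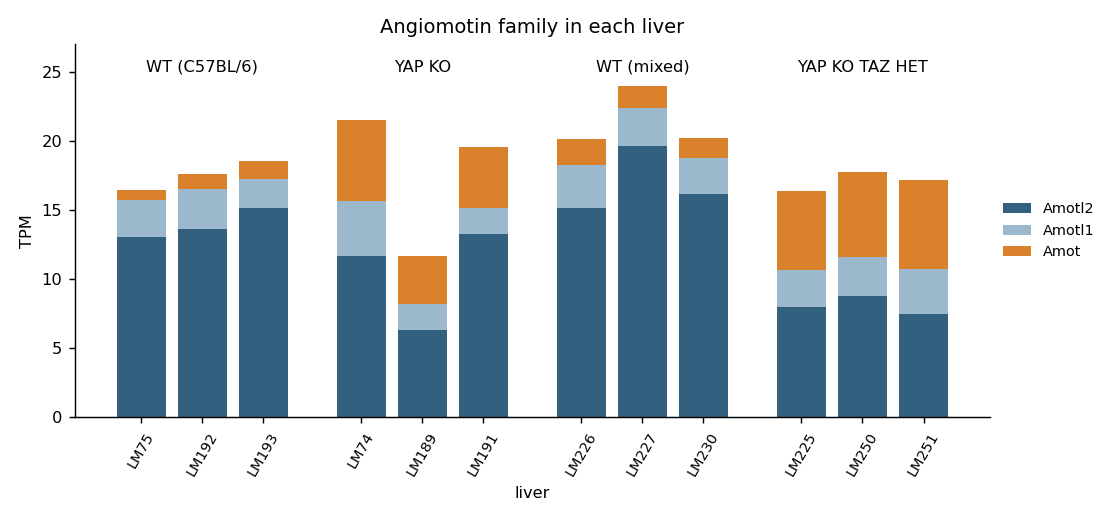
Stacked TPM of *Amotl2*, *Amotl1* and *Amot* in each of the 12 livers, named by mouse number. *Amot* makes up 4.35% to 9.26% of a WT bar and 22.6% to 37.5% of a knockout bar, and the *Amotl2* share is lowest in the 3 YAP KO TAZ HET livers.

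The change of each member in YAP KO was then set against that in livers of the YAP KO TAZ HET group in a contrast over all 12 libraries. None of the 10 members differed between the models, where 0.0658% of 12159 tested genes did (8 genes, and 4.58% at an unadjusted p under 0.05). None of the 10 had an unadjusted p under 0.05 either. The largest difference was that of *Amotl2*, which was 0.49 ± 0.28 less lowered in YAP KO livers (95% interval -0.12 to 1.11, limma adjusted p = 0.999). The differences of the other 9 ran from -0.11 to 0.26. The 95% intervals of 6 of 10 members lay within 1.5-fold of scaled TPM + 1, so that differences of moderate size between the models could be missed. Between the WT groups none of the 10 members differed, where 0.216% of 11126 tested genes did (24 genes, and 5.83% at an unadjusted p under 0.05), and none of the 10 had an unadjusted p under 0.05. In TPM, *Stk4* and *Amotl2* were higher in every WT (mixed) than in every WT (C57BL/6) liver, where 8.42% of all tested genes were. The 10 intervals all lay within 1.5-fold of scaled TPM + 1. In both contrasts the background strain and the set of mice cannot be told apart. Between the models the lost copy of *Wwtr1*, the floxed stock and the remaining level of *Yap1* differed as well, and these cannot be told apart either.

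The wider Hippo list held 77 other genes in 6 role groups. Of 66 tested in YAP KO livers 20 rose and 3 fell, and of 64 tested in livers of the YAP KO TAZ HET group 16 rose and 3 fell, against the 36.7% and 38.2% of all genes given above. The median log2 fold change of these genes was 0.19 and 0.12. 13 genes rose in both models and 2 fell in both. Among the effectors, *Tead1*, a DNA-binding partner of YAP, rose in both (0.51 and 0.41, limma adjusted p = 0.0119 and 0.0498), and in livers of the YAP KO TAZ HET group it lost its call under 10 of 13 alternatives. *Yap1* was the one effector that fell in both. *Tead2* was named after its values were seen. It averaged 10.4 TPM in livers of the YAP KO TAZ HET group against 2.93 TPM in WT (mixed), without overlap. In YAP KO livers it averaged 0.853 TPM against 1.25 TPM in WT (C57BL/6), with overlap. Of 6 effectors tested in the contrast between the models 1 differed, where 0.0658% of 12159 tested genes did. That count is not assigned to *Tead2* here, since *Yap1*, whose remaining level differed between the models, is also among the 6. Among the MAP4K and related kinases, which can phosphorylate LATS beside MST, *Map4k4* rose (1.33 and 1.27), and it was the one gene of 11 and of 10 tested that changed. Among 15 STRIPAK phosphatase genes, which counter MST, *Cttnbp2nl* rose in YAP KO livers (0.86, limma adjusted p = 0.0024), where *Stk24* was at 0.43 (limma adjusted p = 0.0532). In the other model *Stk24* rose (0.39, limma adjusted p = 0.0474) and *Cttnbp2nl* was at 0.34 (limma adjusted p = 0.0531). Both were named after their values were seen.

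Of the 15 junction and polarity genes tested, 7 rose and 2 fell in YAP KO (60% changed) and 7 rose and 1 fell in livers of the YAP KO TAZ HET group (53.3%). The shares in the role groups rest on 6 to 15 tested genes each, and no difference between role groups was tested. *Cdh1*, which encodes E-cadherin, rose most (2.24 and 2.73). *Wwc1*, which encodes the LATS-binding scaffold Kibra, fell in both (-0.73 and -1.12, limma adjusted p = 0.0155 and 0.00019), and was named after its values were seen. *Wwc1* was at 26.04, 44.4 and 42.8 TPM in WT (C57BL/6) and at 30.1, 28.5 and 25.4 TPM in YAP KO livers, and at 41.0, 45.2 and 44.9 TPM in WT (mixed) and at 25.2, 25.8 and 22.4 TPM in livers of the YAP KO TAZ HET group. LM75, the WT (C57BL/6) mouse that was low for *Nf2*, was low for *Wwc1* as well, and without it the fall of *Wwc1* in YAP KO livers was -0.95 (limma adjusted p = 0.00087). The call of *Wwc1* in YAP KO livers was lost in 4 of 13 alternatives, among them no scaling (-0.38, limma adjusted p = 0.147), and held in all 13 in livers of the YAP KO TAZ HET group. In the LIM and RASSF group *Rassf3* (1.06 and 0.97) and *Wtip* (0.69 and 0.50) rose in both, and *Wtip* lost its call in livers of the YAP KO TAZ HET group under 6 of 12 alternatives. In the retention and degradation group, *Ywhah* (0.90 and 0.80) and *Ywhaz* (0.68 and 0.53), which encode 14-3-3 proteins that bind phosphorylated YAP, and *Csnk1e* (0.94 and 0.65), which encodes a casein kinase, rose in both, *Csnk1e* without its call in 2 of 12 alternatives of the YAP KO TAZ HET fit.

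**Figure D5:**
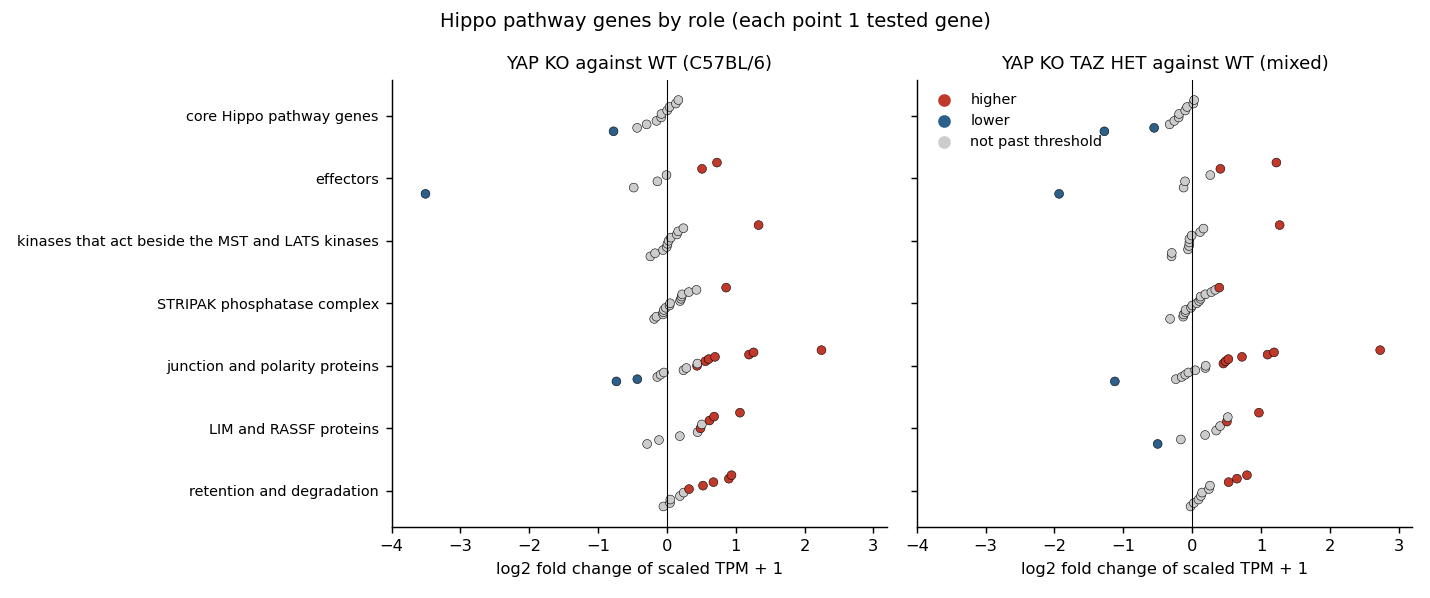
Log2 fold change, on the scale of scaled TPM + 1, of each tested gene of the core set and of 6 other role groups in both models, 1 point a gene, colored by whether it passed an adjusted p of 0.05. Most points of the core set and of the kinase and STRIPAK groups lie near 0. Further out are *Amotl2* (-0.78 and -1.28), *Map4k4* (1.33 and 1.27) and, in YAP KO livers, *Cttnbp2nl* (0.86). In the junction group 7 genes lie in the higher class in each model.

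The livers of the models differed from WT in markers of other cells, and these values stand beside the changes above, since fewer cells of a type and less RNA per cell cannot be told apart in whole tissue. Hepatocyte markers summed to 76349 to 87305 TPM in YAP KO against 94714 to 105178 TPM in WT (C57BL/6) livers, and to 73494 to 90444 against 88286 to 108178 TPM in the other model, and 2 of 7 fell in each (*Alb* and *Ttr*, and *Ttr* and *Tat*). *Alb* alone made up 70.2% to 80.8% of this sum in each liver. In mean TPM, *Apoa1*, *Cps1* and *Hnf4a* were higher than WT in both models, and *Alb* and *Ttr* were lower. *Tat* and *Ass1* were higher in YAP KO and lower in the other model. Macrophage markers summed to 338 to 527 TPM in YAP KO against 150 to 181 TPM in WT (C57BL/6), and to 469 to 575 against 125 to 248 TPM in the other model, and 6 of 7 rose in each. Stellate cell and fibroblast markers summed to 315 to 391.9 against 165 to 189 TPM and to 254 to 370 against 139 to 163 TPM, and 3 of 7 rose in each, while *Lrat* fell in YAP KO livers. Lymphocyte and neutrophil markers summed to 56.2 to 59.3 against 13.8 to 18.6 TPM and to 20.5 to 58.2 against 9.63 to 13.2 TPM, where 3 of 4 tested and 2 of 5 tested rose and *Ly6g* was at 0 in 11 of 12 livers. Endothelial markers overlapped, at 85.8 to 121 against 74.8 to 93.3 TPM and at 99.0 to 133 against 93.9 to 118 TPM, though *Kdr* fell in both models and, in livers of the YAP KO TAZ HET group, *Lyve1* fell and *Cdh5* rose.

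Biliary markers summed to 335.7 to 758.7 TPM in YAP KO against 36.7 to 64.3 TPM in WT (C57BL/6) and to 110 to 231 against 50.3 to 66.9 TPM in the other model. *Spp1* alone made up 69.7% to 95.6% of the sum in each liver. *Spp1* and *Sox9* were the 2 of 5 tested biliary markers that rose in each model, *Epcam* fell in livers of the YAP KO TAZ HET group, and the duct markers *Krt7* and *Cftr* were under 1 TPM in all 12 livers. Immediate-early genes summed to 364, 2817 and 1455 TPM in LM74, LM189 and LM191 of YAP KO against 99.5 to 119 TPM in WT (C57BL/6), and to 233 to 323 against 85.4 to 169 TPM in the other model, and 7 of 8 and 5 of 7 tested rose. LM189, with the highest immediate-early sum, had the lowest *Amotl2* of the YAP KO livers. LM191, with the next sum, had the highest *Amotl2* of that group. The part of these cells and of the immediate-early genes in the changes of *Amotl2*, *Nf2* and the other Hippo genes was not tested.

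Over the 12 livers, the 45 pairs of members had Pearson correlations from -0.30 to 0.76, with a median of 0.30, and 34 were positive. Taken as deviations from the group means, the same pairs had correlations from -0.64 to 0.79, with a median of 0.14, and 28 were positive. The pair with the highest correlation, *Nf2* and *Amotl2* (r = 0.76), was at -0.32 within the groups. These describe 12 points in 4 groups that share their scaling. Of all tested genes, *Nf2* was most like *Gpr155* (r = 0.98) and *Mmaa* (r = 0.98), *Amotl2* most like *Slc12a2* (r = 0.96) and *Leng1* (r = 0.95), and *Lats1* most like *Mob4* (r = 0.95), a STRIPAK gene of the wider list, and *Zrsr1* (r = 0.89). *Sfxn5* was among the 2 genes most like *Mob1b* (r = 0.93), *Sav1* was most like *Slfn8* (r = 0.94) and *Ifi206* (r = 0.84), and *Amotl1* most like *Tspan7* (r = 0.89) and *Tmem216* (r = 0.88). *Mob1a* was most like *2700049A03Rik* (r = 0.87) and *Zfp93* (r = 0.86), *Stk4* most like *Prpf18* (r = 0.86) and *Dync1li1* (r = 0.84), *Stk3* most like *Il2rb* (r = 0.85) and *Akap12* (r = 0.84), and *Lats2* most like *Sebox* (r = 0.82) and *Slc5a3* (r = 0.81). As deviations from the group means, these correlations with the most similar genes were 0.75 to 0.95. The genes were picked as the 2 highest of all tested genes over the same 12 livers, so high values are built into the choice. The deviations come from those livers too and are no separate evidence of likeness.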

How the data were processed

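Whole-liver RNA of 12 female mice was measured. In CLC Genomics Workbench the authors mapped reads to GRCm38.p6, and they deposited a TPM value for every gene and mouse, in 2 tables. The deposited comparison columns of those tables (the authors' edgeR fold changes, p-values and false discovery rates) were not used. Of the TPM columns 0 lacked a sample, 0 pairs of libraries held identical values, and read counts are not used here. The 10 members and all gene lists were chosen with earlier results of these data known. Libraries of a fit were brought to a common scale with a trimmed mean of their log ratios (trimming 30% by ratio and 5% by level at either end, without weights), and log2 was taken after a pseudocount of 1. A gene entered a fit if 3 or more of its libraries reached 1 TPM. The test was limma 3.58.1 (R 4.3.3; lmFit, then eBayes with trend; two-sided) with Benjamini-Hochberg adjusted p under 0.05. A model was fitted with the 6 libraries of its own comparison, and the contrast between models with 12. The paper gives a common sequencing depth for its samples, but the depth of each library and the reads behind each value are unknown. The number of mice limits the precision. The fits were also run on simulated data with independent noise, and no result given here rests on that run. Single genes were compared by exact permutation (scipy 1.17.1), and blastn 2.17.0 was used to look for near-identical transcripts of GRCm38.p6. The alternatives were a pseudocount of 0.1, filters of 0 or 5 TPM, unscaled and quantile normalized values, robust shrinkage, a joint fit of all 12 libraries, and leaving out each mouse. Named were the 10 members, *Yap1* and *Wwtr1*, up to 3 genes of each role group that changed alike in both models (ordered by the smaller change), and the 2 genes most correlated with each member. Genes outside this rule, the single markers of other cell types among them, were named after their values were seen. For 2 genes that this rule named, the results are not reported here.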

Additional observations from a re-analysis of the deposited data

How the results depend on the processing

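The fall of *Amotl2* and *Nf2* in livers of the YAP KO TAZ HET group kept its direction under all 13 alternatives, and only the call of *Nf2* without scaling was lost. The count of members changed in YAP KO livers, 1 as reported, was 0 without a filter and 2 with a minimum of 5 TPM, without scaling, with quantile normalization, with robust shrinkage and with all 12 libraries in 1 fit, and 0 to 1 with a mouse left out. In livers of the YAP KO TAZ HET group the count of 2 was 1 without scaling and 3 with quantile normalization (*Amotl1* added) and with all 12 libraries in 1 fit (*Mob1b* added). Without scaling the sign turned in YAP KO livers for *Lats1* (0.25), *Sav1* (0.25) and *Mob1b* (0.18), and in livers of the YAP KO TAZ HET group for *Stk3* (0.21), *Stk4* (0.19), *Lats1* (0.10), *Lats2* (0.014) and *Amotl1* (0.048). By construction that setting shifts every gene of a library alike before the pseudocount is added, and with the pseudocount low values shift less. *Lats2* in YAP KO livers turned to -0.10 with quantile normalization and to -0.0045 with all 12 libraries, and the difference of *Mob1a* between the models to -0.014 with quantile normalization. With a mouse left out, the log2 fold change in YAP KO livers was -0.099 to 0.12 for *Mob1a*, -0.054 to 0.097 for *Lats2* and -0.14 to 0.0039 for *Sav1*. In livers of the YAP KO TAZ HET group it was -0.059 to 0.071 for *Sav1* and -0.012 to 0.075 for *Mob1a*. The difference between the models was -0.020 to 0.21 for *Nf2*, -0.13 to 0.083 for *Mob1a* and -0.32 to 0.0094 for *Amotl1*. Between the WT groups it was -0.012 to 0.21 for *Nf2*, -0.013 to 0.13 for *Mob1a*, -0.035 to 0.11 for *Amotl1* and -0.028 to 0.20 for *Lats2*. The count of all genes changed with a mouse left out was 2833 to 4069 in livers of the YAP KO TAZ HET group (lowest without LM251, against 4486 as reported), 3 to 20 for the difference between the models (highest without LM74) and 8 to 28 between the WT groups (lowest without LM227). The difference between the models had 3 genes with pseudocount 0.1 and 2 without a filter, and the WT groups 15 without a filter. Where not stated otherwise the cause was not tested. No paired analysis was possible because the mouse numbers are not shared between groups and no label says which mice came from 1 litter. The depth of each library is unknown, and changes within the intervals given could be missed.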
